A study of Mus musculus with 3 samples.

Results

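The core planar cell polarity genes *Vangl1*, *Vangl2*, *Celsr1*, *Celsr2*, *Celsr3*, *Prickle1*, *Prickle2*, *Prickle3*, *Scrib* and *Ptk7* were examined in RNA-Seq counts of the embryonic mouse head. The 10 genes were taken by symbol, and all of them were among the 24062 gene symbols with counts. RNA came from the rostrum, the front of the head, of E9 embryos with 18 to 22 somites. The *tuft* library came from embryos homozygous for the *Tet1* nonsense mutation that showed neural tube closure defects, and the WT library from the 3H1 Balb strain on which *tuft* arose. Each library was a pool of 3 embryos and each genotype had 1 table of counts, whereas the sample records list 2 *tuft* samples, so no value has a replicate error and no test between genotypes was possible. *tuft* is a spontaneous allele and not a knockout, and it is carried by every cell of the embryo.

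Planar cell polarity orients cells within the plane of an epithelium. In vertebrates, VANGL and PRICKLE proteins collect on one face of a cell and Frizzled and Dishevelled on the opposite face, and CELSR cadherins join the faces of neighboring cells. The system drives convergent extension, by which the neural plate narrows and lengthens before its folds meet, and mice that lack *Vangl2*, *Celsr1*, *Scrib* or *Ptk7* function are known for craniorachischisis, in which the neural tube fails to close from the midbrain down the spine.

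The counts on genes summed to 14251942 in WT and 6433067 in *tuft*, 2.22 times as many in WT. This is not sequencing depth alone, since 37.3% of all entries fell on genes in WT and 27.4% in *tuft*. A count of 0 left room for 3 counts, which is 0.466 counts per 1000000 gene counts (CPM) for *tuft* and 0.21 CPM for WT. Reads fell on 16914 gene symbols in WT and on 11795 in *tuft*. Entries without a unique alignment made up 51.41% of all entries in WT and 59.15% in *tuft*. The part of these library differences in the near-zero *tuft* values below was not tested. The mutated gene, *Tet1*, was read 435 times in WT and 32 times in *tuft*, 0.214 of the WT level (0.145 to 0.307). The neuroectoderm of the forebrain and midbrain was present in both libraries: 12 of its 12 markers were above 3 counts in WT and 10 of 12 in *tuft*, with summed levels of 1170 and 1430 CPM. Its members went both ways, 3 at least 2-fold higher in *tuft* and 2 lower, *Rax* with 389 counts in WT and 2 in *tuft*, and *Hesx1* with 36 and 0. The 8 surface ectoderm markers summed to 801 CPM in WT and 956 CPM in *tuft*, and the 8 mesenchyme and neural crest markers to 695 and 686 CPM. These near-equal sums also held members that went both ways. In surface ectoderm, *Krt8* was at least 2-fold higher in *tuft* (log2 fold change 1.65), and *Cdh1* (-2.12) and *Esrp1* (-3.92) were lower. In mesenchyme and crest, *Sox10* (3.48) and *Twist1* (1.65) were higher and *Pdgfra* (-1.82) was lower. *Foxd3* had 14 counts in WT and 0 in *tuft*. The libraries differed more in other tissues, with endothelial markers at 233 CPM in WT and 49.3 CPM in *tuft*, yolk sac endoderm markers at 1720 and 273 CPM, and erythroid markers at 3190 and 35500 CPM. The erythroid sum was carried by *Hbb-y* and *Hba-x*, while *Hbb-bh1* was nearly level (log2 fold change 0.11) and *Alas2* lower (-2.21). All 4 endothelial markers were at least 2-fold lower in *tuft*, *Pecam1* with 443 counts in WT and 0 in *tuft*. Of the 7 yolk sac markers, 5 were lower, *Apoa4* with 2856 counts in WT and 0 in *tuft*. *Amn* was higher (log2 fold change 1.01). The Hox markers of the trunk summed to 1.68 CPM in WT and 0.155 CPM in *tuft*. The part of these tissue differences in the results below was not tested, and in bulk RNA fewer cells that express a gene and less RNA per cell cannot be told apart.

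Of the 10 genes, 5 were at least 2-fold lower in *tuft* than in WT, *Vangl1*, *Vangl2*, *Celsr3*, *Prickle1* and *Ptk7*, and 2 were at least 2-fold higher, *Celsr2* and *Prickle2*. *Celsr1*, *Scrib* and *Prickle3* did not reach a 2-fold difference in either direction. Fold changes are *tuft* over WT after scaling by TMM, the trimmed mean of M-values (factor 0.761), and their 95% intervals are exact binomial intervals that cover counting error only. Counts under 3 were set to 3 for this count of genes. Among all 13979 genes whose counts came to 10 or more over both libraries, 37.5% were at least 2-fold lower and 21.3% at least 2-fold higher, which for 10 genes comes to 3.75 and 2.13 genes. The 9 core genes at 10 CPM or more in either library, all but *Prickle3*, had 5 lower (55.6%) and 2 higher (22.2%), beside 30.2% lower and 25.3% higher among the 10133 genes at that level. Their median log2 fold change was -1.21, and that of the 10133 genes was -0.08. The share of higher genes was close to the background in both counts.

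**Figure D1:**
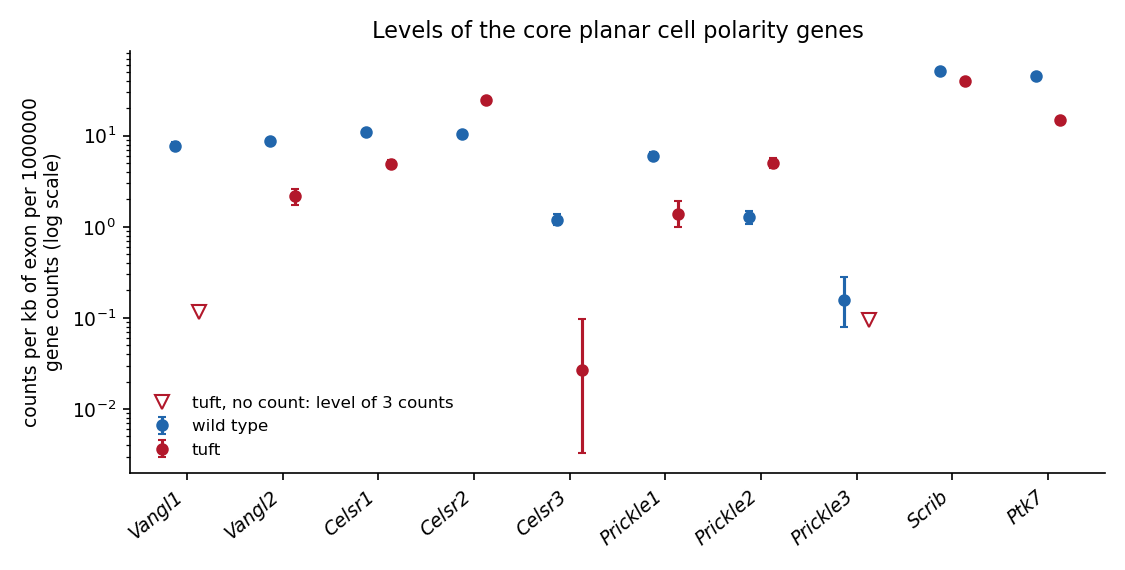
Level of each core gene in the wild-type (blue) and *tuft* (red) library, in counts per kilobase of exon per 1000000 gene counts on a log scale. Points are single pooled libraries, bars are exact 95% Poisson intervals for counting error, and open triangles mark a gene with no count at the level that 3 counts would give. *Celsr2* and *Prickle2* are the genes with the red point above the blue one.

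Levels of different genes were compared per kilobase of exon (RPKM). In WT, the scaffold gene *Scrib* stood at 51.2 RPKM and *Ptk7* at 44.9 RPKM, followed by *Celsr1* at 11.0, *Celsr2* at 10.5, *Vangl2* at 8.68, *Vangl1* at 7.72 and *Prickle1* at 5.94 RPKM. The least abundant were *Prickle2* at 1.28, *Celsr3* at 1.2 and *Prickle3* at 0.157 RPKM. The counting intervals of *Celsr1* and *Celsr2*, of *Vangl2* and *Vangl1*, and of *Prickle2* and *Celsr3* overlapped, and those of the other neighbors in this order did not. In *tuft*, *Scrib* was again first at 39.6 RPKM, but *Celsr2* came next at 24.6 RPKM, ahead of *Ptk7* at 14.8 RPKM. *Prickle2*, at 5.04 RPKM, stood with *Celsr1*, at 4.94 RPKM, with overlapping intervals. *Vangl2* at 2.16 and *Prickle1* at 1.4 RPKM also overlapped, and *Celsr3*, *Vangl1* and *Prickle3* were at 3 counts or fewer and could not be ordered.

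The *Vangl* genes encode the transmembrane proteins at the center of the pathway, and *Vangl2* is the gene mutated in the *loop-tail* mouse. Both were lower in *tuft*. *Vangl2*, on chromosome 1 of GRCm38 from 172000960 to 172027318, was read 865 times in WT (60.7 CPM) and 97 times in *tuft* (15.1 CPM). After scaling this was 0.327 of the WT level (0.262 to 0.403), or 3.06-fold lower. *Vangl1*, on chromosome 3 from 102153583 to 102204744, was read 444 times in WT (31.2 CPM) and not once in *tuft*, where 152 counts would stand for an unchanged level. It was at least 50.8-fold lower when its *tuft* count is set to 3. Such a loss was not particular to *Vangl1*, since 77 of the 1695 other genes with 333 to 555 counts in WT (4.54%) also had no count in *tuft*. *Vangl1* thus went from 33.9% of the family's counts (31.4 to 36.6) in WT to 0 of 97 in *tuft*, which allows a share of up to 3.09% at 3 counts, or 3.73% by the exact interval. The annotation places noncoding genes over *Vangl1*, *Celsr2*, *Celsr3*, *Prickle2* and *Scrib*, and whether the counting used the strand is not given in the sources used here.

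The *Celsr* genes encode large cadherins that span the membrane several times and bind each other across cell borders. *Celsr1* is the member best known from neural tube closure, and *Celsr2* and *Celsr3* from axon tracts and from the cilia of ependymal cells. In WT, *Celsr1* (chromosome 15, 85898758 to 86034223) and *Celsr2* (chromosome 3, 108390848 to 108416069) were close to level, with 1730 and 1726 counts. In *tuft* they were apart, with 352 counts of *Celsr1* and 1820 of *Celsr2*. Relative to WT, *Celsr2* stood at 3.07-fold (2.87 to 3.28) and *Celsr1* at 0.592 (0.527 to 0.665), short of a 2-fold difference. *Celsr3*, on chromosome 9 from 108826023 to 108852969, was the least abundant *Celsr* gene in either library, with 198 counts in WT and 2 in *tuft*. Its ratio of 0.0294 had a wide interval of 0.00354 to 0.108, and 250 of 1223 other genes with 149 to 247 counts in WT (20.4%) had 2 counts or fewer in *tuft*.

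The *Celsr1* to *Celsr2* ratio lies within a library and needs no scaling between libraries. It was 1.00 in WT and 0.193 in *tuft*, a change to 0.193 of the WT ratio (exact interval 0.169 to 0.221). *Celsr2* made up 47.2% of the counts of the family in WT (45.6 to 48.9) and 83.7% in *tuft* (82.1 to 85.2). *Celsr1* went the other way, from 47.3% to 16.2%, and *Celsr3* from 5.42% to 0.092%. The exon lengths of *Celsr1* and *Celsr2*, 11075 and 11513 bases, differ little, so that the WT genes were level per kilobase as well.

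**Figure D2:**
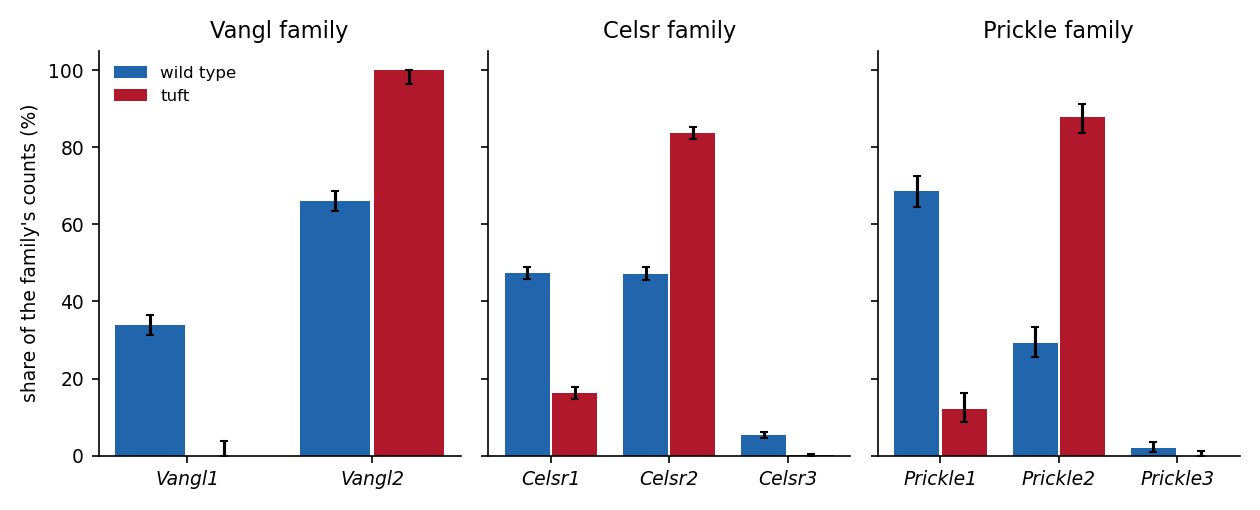
Share of the counts of the *Vangl*, *Celsr* and *Prickle* families held by each member, in percent, in the wild-type (blue) and *tuft* (red) library, with exact 95% binomial intervals for counting error. In each family a single member holds over 80% of the *tuft* counts: *Vangl2*, *Celsr2* or *Prickle2*.

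*Prickle* genes encode cytoplasmic proteins with LIM domains that bind VANGL. Their balance was turned around between the libraries. *Prickle1* (chromosome 15, 93499111 to 93596266) was read 368 times in WT and 39 times in *tuft*, 0.309 of the WT level (0.216 to 0.43). *Prickle2* (chromosome 6, 92370891 to 92706334) was read 157 times in WT and 280 times in *tuft*, which had fewer gene counts in all. This was 5.19-fold higher (4.26 to 6.36) and the highest fold change of the 10 genes. The *Prickle1* to *Prickle2* ratio was 2.34 in WT and 0.139 in *tuft*, 0.0594 of the WT ratio (0.0395 to 0.0883). In shares of the family, *Prickle2* held 29.3% in WT (25.5 to 33.3) and 87.8% in *tuft* (83.7 to 91.2). *Prickle3*, on chromosome X from 7657379 to 7668197, had 11 counts in WT and none in *tuft*, where an unchanged level would give 3.78 counts, so a difference was not detectable at this depth. It overlaps *Plp2*, and reads that fall on both genes can be left out as ambiguous. *Prickle2* spans the pseudogenes *Gm17797* and *Gm5880*.

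*Scrib* encodes a scaffold of the basolateral membrane that links VANGL2 to cell polarity in general, and it is mutated in the *circletail* mouse. It lies on chromosome 15 from 76047162 to 76069784 and was the most abundant core gene per kilobase in both libraries. With 4184 counts in WT and 1463 in *tuft*, its fold change was 1.02 (0.959 to 1.08), and the direction of this small difference turned under 2 of the other 5 scalings, to a log2 fold change of -0.37 with library totals alone and -0.02 with the upper quartile. *Ptk7*, on chromosome 17 from 46564451 to 46630049, encodes a receptor-like protein whose kinase domain is inactive. It was read 3013 times in WT (211 CPM) and 448 times in *tuft* (69.6 CPM), 0.433 of the WT level (0.391 to 0.478).

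Ratios between members of different families were compared in the same way, in 12 pairs of genes in all. *Vangl2* against *Scrib* was 0.207 in WT and 0.0663 in *tuft*, 0.321 of the WT ratio (0.255 to 0.4). *Ptk7* against *Scrib* came to 0.425 of its WT ratio (0.378 to 0.478). *Prickle1* and *Vangl2*, whose proteins bind each other, were lower by factors that could not be told apart: their ratio was 0.425 in WT and 0.402 in *tuft*, 0.945 of the WT ratio (0.622 to 1.41). The *Vangl2* to *Prickle2* ratio, in contrast, came to 0.0629 of its WT value (0.0467 to 0.0846), from 5.51 to 0.346. The *Prickle2* to *Celsr2* ratio came to 1.69 times its WT value (1.37 to 2.09). The fold change of *Prickle2* was thus the larger by more than counting error, if reads are taken as independent. These intervals again hold no spread between embryos. By qPCR of single embryos, the study found no consistent change of *Vangl2* and *Prickle2*, nor of *Dvl2* and *Daam1*, given below. It reported higher *Celsr1* or *Celsr2* in some affected embryos, whereas *Celsr1* stood at 0.592 in the pool.

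**Figure D3:**
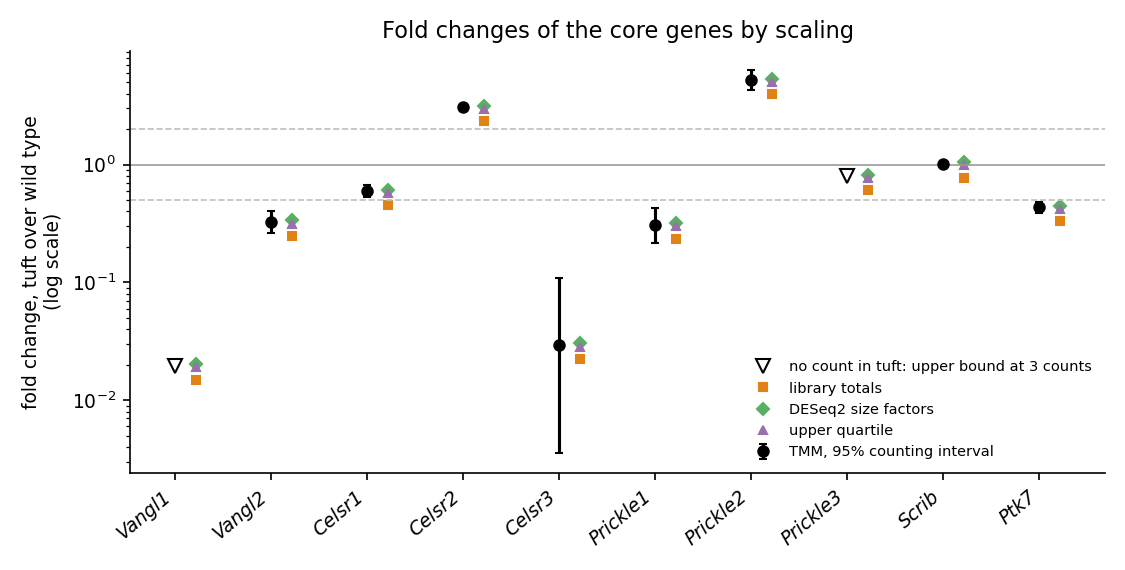
Fold change of each core gene, *tuft* over wild type, on a log scale. Black points are TMM values with exact 95% counting intervals, colored symbols the same counts under 3 other scalings, open triangles an upper bound for genes with no count in *tuft*, and dashed lines a 2-fold difference. Library totals alone (orange) take *Celsr1* past the lower dashed line, and *Celsr2* and *Prickle2* stay above the upper line under each scaling shown.

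**Figure D4:**
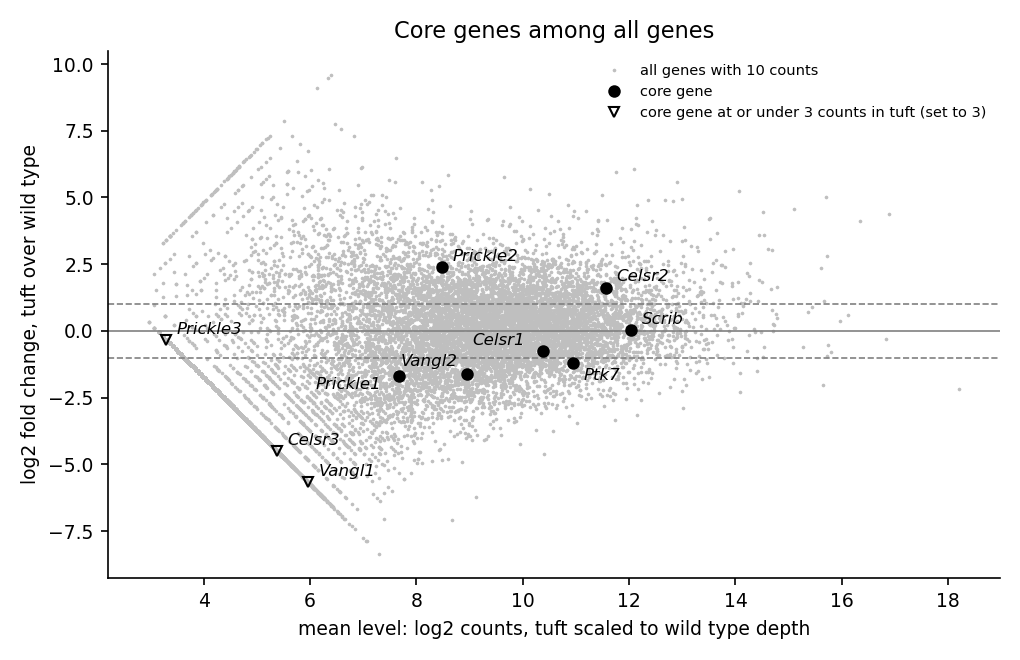
Log2 fold change, *tuft* over wild type, against the mean level in log2 counts for all genes whose counts came to 10 or more over both libraries (gray) and the core genes (black). Counts under 3 are set to 3, which gives the diagonal edges, where *Vangl1*, *Celsr3* and *Prickle3* lie as open triangles. The other core genes lie within the gray cloud.

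The plot of all genes shows how widely the libraries differed at the level of the core genes. Of the 1417 genes with a log2 mean level of 7 to 8, where *Prickle1* lies, 39.1% were at least 2-fold lower in *tuft* and 27.0% at least 2-fold higher. From 8 to 9, where *Vangl2* and *Prickle2* lie, 27.8% of 1945 genes were lower and 25.9% higher. *Ptk7* was at a level (10 to 11) where lower genes were rarer, 14.7% of 1746, and *Celsr2* at a level (11 to 12) where 27.3% of 993 genes were higher.

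Promoter sequence of 7 of the 10 genes was found in RefSeq genes of GRCm38.p6, with 11 start sites in all. TET proteins act on methylated cytosine next to guanine, and the TET1 protein binds DNA rich in CG, so the CG pairs are what these sequences are shown for. The 250 bases before a start site hold a median of 6 CG across the 32851 promoters of the table. The 2 genes that were higher and 2 that were lower in *tuft* are shown here before the most upstream of the start sites that the promoter table lists for each, 5′ to 3′ on the strand of the gene, which is the minus strand for each, with every CG in capitals. The listed start of each lies inside the span of the gene given above, which reaches further upstream. For *Celsr2* and *Prickle1* all of the bases shown are inside that span, and for *Prickle2* and *Vangl2* a part of them. The positions are chr3:108415580-108415829 for *Celsr2*, chr6:92706185-92706434 for *Prickle2*, chr1:172027296-172027545 for *Vangl2* and chr15:93595903-93596152 for *Prickle1*.

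Celsr2: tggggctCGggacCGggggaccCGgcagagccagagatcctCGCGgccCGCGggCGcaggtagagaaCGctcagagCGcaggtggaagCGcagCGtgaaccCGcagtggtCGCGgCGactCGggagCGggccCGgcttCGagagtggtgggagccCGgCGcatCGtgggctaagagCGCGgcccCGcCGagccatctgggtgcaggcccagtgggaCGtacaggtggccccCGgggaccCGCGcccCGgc
Prickle2: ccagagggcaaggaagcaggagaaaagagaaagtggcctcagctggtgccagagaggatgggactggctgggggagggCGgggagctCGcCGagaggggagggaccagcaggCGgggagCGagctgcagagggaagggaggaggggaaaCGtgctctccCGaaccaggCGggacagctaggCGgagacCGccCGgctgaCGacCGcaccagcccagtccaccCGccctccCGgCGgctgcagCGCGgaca
Vangl2: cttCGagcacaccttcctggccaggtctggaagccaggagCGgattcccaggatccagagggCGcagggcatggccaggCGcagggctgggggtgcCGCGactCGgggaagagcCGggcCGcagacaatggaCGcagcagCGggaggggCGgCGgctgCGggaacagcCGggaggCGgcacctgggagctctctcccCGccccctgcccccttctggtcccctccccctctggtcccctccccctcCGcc
Prickle1: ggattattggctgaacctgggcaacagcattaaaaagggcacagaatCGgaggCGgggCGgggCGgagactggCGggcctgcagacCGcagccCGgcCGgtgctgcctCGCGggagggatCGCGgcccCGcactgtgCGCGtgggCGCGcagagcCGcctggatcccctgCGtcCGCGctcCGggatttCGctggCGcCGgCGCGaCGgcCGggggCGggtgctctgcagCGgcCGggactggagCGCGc

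The promoter of *Celsr2* holds 32 CG, a number that 4.58% of all promoters reach, and that of *Prickle1* holds 34, reached by 3.53%. *Prickle2* and *Vangl2* hold 18 each, reached by 21.7%. Each is above the median of all promoters. At the start sites shown, *Celsr2* and *Prickle1* are alike in CG and opposite in fold change, as are *Prickle2* and *Vangl2*. A relation of CG number to direction was not tested. Of the others, *Celsr3* holds 17, *Ptk7* 14 and *Prickle3* 10. *Prickle2* has 3 further start sites with 4, 5 and 4 CG, close to the median, and *Prickle1* has another with 16. Counts per gene do not show which start site was used, and DNA methylation of these sites was not analyzed here.

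A wider list of 43 genes of the pathway was read beside the core, 42 of them with at least 10 counts, all but *Prickle4*. Of the 42, 10 (23.8%) were at least 2-fold higher in *tuft* and 12 (28.6%) at least 2-fold lower, with a median log2 fold change of -0.33. Across the 13979 genes the shares were 21.3% and 37.5% and the median -0.45. At 10 CPM or more in either library, 10 of 40 genes of the list were higher (25.0%) and 11 lower (27.5%), close to the 25.3% and 30.2% of all genes at that level, and the medians were -0.30 and -0.08.

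Among ligands and receptors, *Wnt5a*, the main ligand of the pathway, stood at 3.75-fold (3.32 to 4.25) and the Frizzled receptor *Fzd3* at 2.22-fold (2.05 to 2.39). *Ror1*, a WNT5A co-receptor, had 177 counts in WT and none in *tuft*, at least 20.3-fold lower, whereas its relative *Ror2* was just under the 2-fold line at 2.00 (1.82 to 2.19). The Dishevelled genes, which carry the Frizzled signal into the cell, were split as the *Celsr* and *Prickle* genes were. *Dvl2* was 3.44-fold higher (3.2 to 3.7), *Dvl1* was at 0.482 (0.409 to 0.566) and *Dvl3* at 0.404 (0.334 to 0.485). The adaptor *Gipc1* was 2.58-fold higher (2.37 to 2.8). *Ankrd6*, the mammalian Diversin, and *Dact1*, a Dishevelled partner, had 249 and 222 counts in WT and none in *tuft*. They were at least 28.5-fold and 25.4-fold lower. Of 1223 genes with 149 to 247 counts in WT, a range that holds *Ror1* and *Dact1*, 20.4% had 2 counts or fewer in *tuft*.

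Of the effectors on the cytoskeleton, *Rhoa*, the small GTPase that drives actomyosin contraction, was 8.84-fold higher (8.5 to 9.2) and *Arhgef11*, an exchange factor for it, 4.55-fold higher (4.1 to 5.06). The formins that link Dishevelled to actin had 3 counts or fewer in *tuft*. *Daam1* had 308 counts in WT and 3 in *tuft*, a ratio of 0.0284 (0.00582 to 0.0837), and *Daam2* had 129 and 0, at least 14.8-fold lower. The share of all genes with so few *tuft* counts was not computed at their WT levels. The kinases *Rock1* and *Rock2* were at 0.834 (0.626 to 1.1) and 0.638 (0.525 to 0.771). Among genes that link polarity to the cilium, *Wdpcp* was 12.9-fold higher (9.87 to 17.1), *Intu* 2.18-fold higher (1.8 to 2.63) and *Fuz* at 0.497 (0.323 to 0.74).

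Of the partners of *Scrib* at the basolateral membrane, *Dlg1* was 5.45-fold higher (5.07 to 5.86) and *Llgl1* was at 0.49 (0.455 to 0.528). *Smurf2*, a ubiquitin ligase that targets PRICKLE1, was at 0.34 (0.279 to 0.411), and *Fjx1*, the mammalian Four-jointed, at 0.0488 (0.021 to 0.097). The proteoglycan genes were split again, with *Gpc4* 2.69-fold higher (2.38 to 3.05) and *Sdc4* at 463 counts in WT and 1 in *tuft*, a ratio of 0.00629 (0.000159 to 0.0352). At 333 to 555 counts in WT, a range that holds *Sdc4*, 77 of 1695 genes (4.54%) had no count in *tuft*. The intervals of *Dvl1*, *Intu*, *Fuz* and *Llgl1* cross the 2-fold line. The remaining 20 genes, among them *Rac1*, *Mapk8*, *Sec24b*, *Fat4* and *Dchs1*, did not reach 2-fold.

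**Figure D5:**
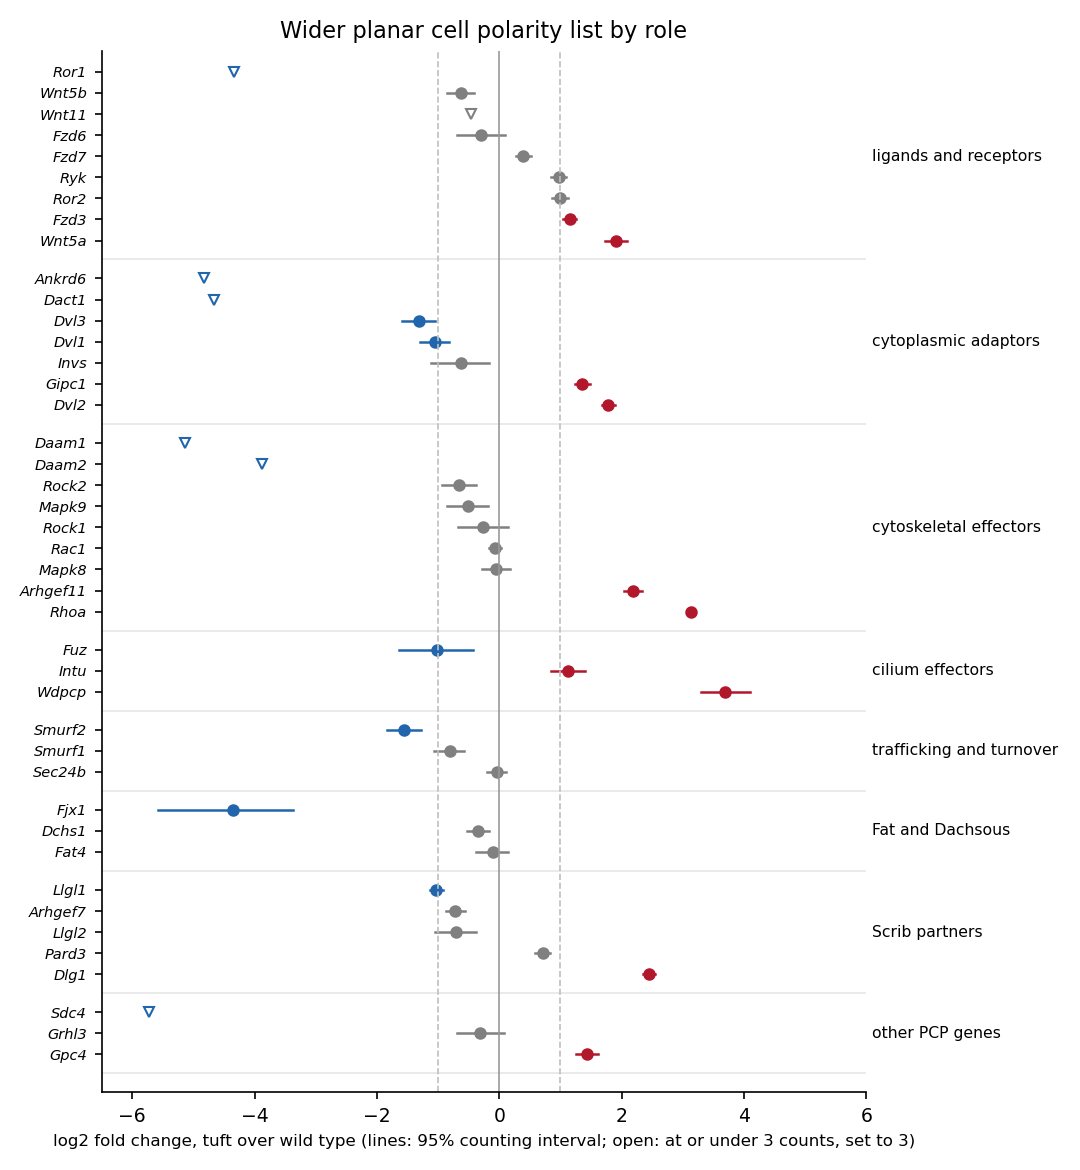
Log2 fold change, *tuft* over wild type, of 42 genes of the wider planar cell polarity list by role. Red genes are at least 2-fold higher, blue genes at least 2-fold lower and gray genes neither, lines are 95% counting intervals, and open triangles are genes at or under 3 counts in *tuft*, set to 3. The roles with 5 or more genes hold genes in both directions.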

How the data were processed

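RNA of the rostrum was measured by RNA-Seq in 1 pooled library per genotype. The authors deposited raw counts per gene symbol: they trimmed single-end Ion Proton reads of poly-A RNA with PRINSEQ, aligned them to mm10 with TopHat2 2.0.14 on Bowtie2 2.2.5 and counted them with htseq-count. The overlap mode, strand setting and gene model release are not given in the sources used here. The 5 summary lines of each table were left out of totals; counts on genes were 27.4% of all entries in *tuft* and 37.3% in WT. The *tuft* table could hold either *tuft* sample or both.

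Here, CPM used the totals of gene counts, and fold changes were scaled with TMM (30% of log ratios and 5% of levels trimmed; Python 3.11.15, numpy 2.4.6, scipy 1.17.1). The factor was checked with edgeR 4.0.16, whose quasi-likelihood test cannot be run with 1 library per genotype. The study's NOISeq-sim probabilities rest on simulated libraries and were not used. Exact 95% intervals (Clopper-Pearson for folds and shares, Poisson for levels, conditional for ratios of ratios) cover counting error only. They take each read as independent, and reads carry no molecular identifiers, so they may be too narrow. Calls were a fold change of at least 2 in either direction with at least 10 counts in both libraries together. The steps were tested on simulated Poisson counts in which few genes changed, as many up as down. In the real libraries far more genes differed, and more were lower than higher, so that setting was not tested. Exon lengths came from GENCODE vM1 (NCBIM37, lengths only) and positions from RefSeq genes of GRCm38.p6. Alternatives were 5 other scalings, a 1.5-fold threshold, the whole interval past 2-fold and a minimum of 30 counts. All core genes were named, with each gene of the wider list that was called and had at least 100 counts in a library; a few others of the list were named beyond this rule. The members, the lists and the pairs of genes were chosen with earlier results of these data known.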

Additional observations from a re-analysis of the deposited data

How the results depend on the processing

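Under all 8 alternatives, *Celsr2* and *Prickle2* were the 2 core genes at least 2-fold higher in *tuft*. The core genes at least 2-fold lower numbered 5 or 6, and the sixth was *Celsr1*, which came in with library totals alone (log2 fold change -1.15, against -0.76 with TMM) and with a 1.5-fold threshold. Library totals alone shifted every gene by -0.39 on the log2 scale against TMM, and the other 4 scalings by -0.05 to 0.05. No called core gene changed direction under the 5 scalings, and 6 of 50 single values moved beyond their counting interval, each of them with library totals. Wider pathway genes numbered 7 to 13 higher and 9 to 18 lower. With library totals they were 7 and 18, against 10 and 12 with TMM. Ratios within a library do not depend on scaling. No paired analysis was possible because each genotype had 1 table of counts, and for the same reason no library could be left out. *Vangl1*, *Celsr3* and *Prickle3* were at 3 counts or fewer in *tuft*. For *Vangl1* and *Celsr3*, an unchanged level would give 152 and 68 counts, and their fold changes have only a bound or a wide interval. For *Prickle3* it would give 3.78 counts, so a 2-fold fall could not have been shown. The part of the library differences in these values was not tested.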

Other observations

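The nearest protein-coding gene with at least 10 counts on each side of a core gene was read as well, a comparison chosen after the values of the core genes had been seen. Of these 20 neighbors, 9 were at least 2-fold lower in *tuft* and 7 at least 2-fold higher, where the shares of all genes, 37.5% and 21.3%, come to 7.51 and 4.26. Beside the 5 lower core genes, 5 of 10 neighbors were lower, where the share of all genes comes to 3.75, and beside *Celsr2* and *Prickle2* 0 of 4 were higher, where it comes to 0.85. A difference from the background was not tested, and the background was not limited to protein-coding genes as the neighbors were. *Vangl1* lies between *Nhlh2*, with 59 counts in *tuft* and 3 in WT, and *Tspan2*, with 0 and 112. *Celsr3* lies between *Nckipsd*, with 830 and 280 counts, and *Slc26a6*, with 0 and 160. *Prickle3* lies between *Syp*, with 450 and 75 counts, and *Gpkow*, with 478 and 732.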
